A study of Arabidopsis thaliana with 9 samples.

Results

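A set of 15 Affymetrix probe sets, of 22746 in the table, marked transcripts that were bright in dark-grown Arabidopsis thaliana wild type seedlings and dim in both mutant genotypes of the study. Members were selected on measured values, a deposited signal of 600 or more on all 3 wild type arrays and under 150 on all 6 arrays of cop1-4 and cop1-4 BBX22-GFPox. Those thresholds left 16 probe sets, and 1 of them, that of the oleosin gene OLEO3, was left out by name together with organelle genes and a list of named gene families. Of the 15 members 7 were paired with 1 gene in the platform annotation, 0 with several and 8 with none. The exclusions by name could not be applied to those 8, which are called here by their probe set identifiers. The values that chose the members are those of the comparison of wild type with the mutants, so the wild type to mutant differences below are descriptions and carry no test.

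Every sample was RNA of whole Col-0 seedlings, 4 days old and dark-grown on half-strength Murashige and Skoog plates with sucrose, with 3 biological replicates and 1 array per sample. Wild type carried no mutation per the labels, cop1-4 carried that allele, and cop1-4 BBX22-GFPox carried the same allele plus BBX22-GFPox, by its name an overexpressed fusion of BBX22 with GFP. The sources used here give neither the construct's promoter nor the number of independent lines. Transcripts of COP1 and BBX22 were not analysed here, and no check of the genotypes rests on them.

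In darkness a seedling grows a long hypocotyl, a closed apical hook and unexpanded cotyledons without chlorophyll, the habit called etiolated. COP1, part of an E3 ubiquitin ligase, holds this state by marking light-signalling transcription factors for degradation, and cop1 mutants look partly light-grown in the dark. BBX22 is a B-box protein that promotes light responses and is itself a COP1 target.

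These values do not show that a transcript was absent in the mutants. A signal of 150 lay at the 45.9 to 50.4 percentile of an array, and array medians ran from 147.2 to 189.4. All 90 member values on the mutant arrays lay under the median of their own array, and 17 of them, in 6 members, lay under 24.5, the 20th percentile of all values. No member was under 24.5 on all 6 mutant arrays. The values are from whole seedlings, so fewer cells of a type and less RNA per cell cannot be told apart. Replicate 1 stood apart from replicates 2 and 3 in each genotype. Its correlation with them across probe sets was 0.921 and 0.926 in wild type, 0.816 and 0.819 in cop1-4 and 0.842 and 0.845 in cop1-4 BBX22-GFPox, where replicates 2 and 3 correlated at 0.982, 0.987 and 0.989. The replicate 1 arrays of the mutant genotypes correlated with each other at 0.963, above either one's correlation with its own genotype. Replicate 1 is given separately where it bears on a member.

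Of the 2 names proposed as markers of the set, OCT1 was a member and AT4G22490 was not. AT4G22490, listed here with the lipid transfer and hybrid proline-rich protein family of small secreted cysteine-rich proteins, had wild type signals of 1324, 6010 and 6664. Its cop1-4 signals were 91.6, 215 and 204, so replicates 2 and 3 missed the ceiling, and its cop1-4 BBX22-GFPox signals were 73.5, 146 and 136. Wild type was above the mutants on every array, with a mean signal 27.4 times that of cop1-4.

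OCT1 (AT1G73220) encodes an organic cation and carnitine transporter of the plasma membrane. Its signal was 1538, 823 and 961 in wild type replicates 1, 2 and 3. It was 14.9, 6.50 and 3.10 in cop1-4, and 77.3, 12.7 and 8.40 in cop1-4 BBX22-GFPox. Replicate 1 was the highest array in all 3 genotypes, and the lowest wild type array was 10.7 times the highest mutant array. The ratio of the wild type mean (1107 ± 379, SD, n = 3) to the cop1-4 mean (8.17 ± 6.07) was 136, but all cop1-4 values lay under 24.5, so that ratio gives OCT1 no rank among the members. On the log2(signal + 24.5) scale used for all log2 values here, the difference of cop1-4 from wild type was −5.08.

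Of 6 loci of the organic cation transporter family 3 had a probe set with 1 gene, and besides OCT1 these were OCT4 (AT3G20660) and OCT5 (AT1G79410). OCT4 had signals of 620, 320 and 311 in wild type and of 329, 112 and 131 in cop1-4, a log2 difference of −1.10 (SE 0.492, limma adjusted p = 0.129). Replicate 1 was the high array in both genotypes, so the groups overlapped. With the replicate number as a block OCT4 was called lower (adjusted p = 0.00176), where 24.6% of all probe sets were. Of the 9 fits without 1 array only that without cop1-4 replicate 1 called it (adjusted p = 0.0335, at most 0.338 in the others). That fit called 5657 probe sets in either direction, against 4100 with all arrays. OCT4 was not called with quantile normalization (adjusted p = 0.186) or median scaling (0.228). OCT5 stood at −0.47 (adjusted p = 0.148). Over all 15922 probe sets tested, limma called 14.5% lower and 11.3% higher in cop1-4 than in wild type.

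The protein families of the members named by locus alone are general knowledge and not from the files. AT2G37870, a protein of the lipid transfer and seed storage albumin superfamily, had signals of 640, 1042 and 936 in wild type. The cop1-4 arrays gave 36.4, 115 and 104, and the cop1-4 BBX22-GFPox arrays 86.6, 65.9 and 134. Wild type replicate 1 was the lowest of its group and close to the threshold, and the wild type mean was 10.3 times that of cop1-4.

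AT2G16005, with an MD-2-related lipid recognition domain, had signals of 1017, 1006 and 665 in wild type. It had 44.8, 49.4 and 44.6 in cop1-4 and 36.5, 31.5 and 43.4 in cop1-4 BBX22-GFPox. The mutant arrays were close together and the ratio of means was 19.4 to cop1-4 and 24.1 to cop1-4 BBX22-GFPox. AT4G11610, a protein with C2 domains, which bind calcium and phospholipids, gave 1326, 2227 and 1845 in wild type. Its mutant signals were 121, 118 and 141 in cop1-4, the last near the ceiling, and 104, 113 and 102 in cop1-4 BBX22-GFPox. AT2G34020, a protein with EF-hand calcium-binding motifs, had 910, 1251 and 1453 in wild type, 40.0, 50.6 and 93.7 in cop1-4 and 89.5, 142 and 93.1 in cop1-4 BBX22-GFPox. Its wild type mean was 19.6 times the cop1-4 mean and 11.2 times the cop1-4 BBX22-GFPox mean.

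The other named members were a transcription factor gene and a gene of a zinc-binding domain family. AT1G64380, of the AP2/ERF family of DNA-binding proteins, had 853, 623 and 718 in wild type, 88.0, 113 and 144 in cop1-4 and 95.9, 105 and 97.7 in cop1-4 BBX22-GFPox. It was the member with the smallest ratio of means, 6.37 to cop1-4 and 7.36 to cop1-4 BBX22-GFPox. AT2G19660, with a cysteine- and histidine-rich C1 domain, had 1111, 829 and 840 in wild type, 61.8, 85.7 and 138 in cop1-4 and 96.8, 71.9 and 59.9 in cop1-4 BBX22-GFPox. Its wild type arrays were close to each other (coefficient of variation, the SD over the mean, 17.2%), and its lowest wild type array was 6.02 times its highest mutant array.

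**Figure D1:**
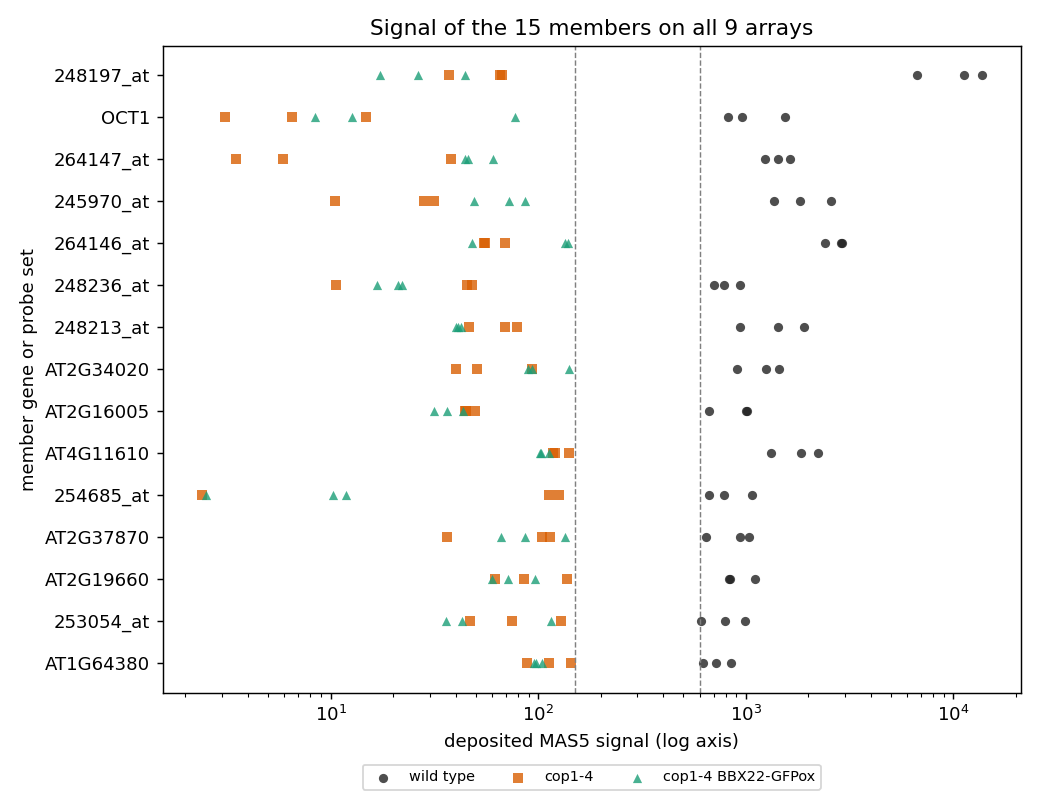
The deposited signal (log axis) of each member on the 9 arrays, with circles for wild type, squares for cop1-4 and triangles for cop1-4 BBX22-GFPox, ordered by the ratio of the wild type to the cop1-4 mean. Dashed lines mark the thresholds of 150 and 600, and no member has a signal between them; the wild type arrays of 248197_at lie at 6695 to 13666.

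The probe set 248197_at, which has no gene name here, had the largest ratio of means. Its signals were 6695, 13666 and 11249 in wild type, against 37.3, 65.2 and 67.0 in cop1-4 and 44.3, 17.3 and 26.5 in cop1-4 BBX22-GFPox. The wild type mean of 10536 ± 3540 (SD, n = 3) was 186 times the cop1-4 mean of 56.5 ± 16.7, and the lowest wild type array was 99.9 times the highest mutant array. That gap between groups was the widest of the 15 members, the next being 20.4 times for 264147_at.

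Of the unnamed members 264146_at and 264147_at had the steadiest wild type signals, with coefficients of variation of 10.2% and 13.7%. The first gave 2867, 2897 and 2400 in wild type, 54.9, 68.9 and 55.5 in cop1-4 and 47.9, 135 and 140 in cop1-4 BBX22-GFPox. The second gave 1425, 1234 and 1627 in wild type, 3.5, 5.9 and 38.1 in cop1-4 and 44.6, 60.6 and 45.8 in cop1-4 BBX22-GFPox. Both were above their cop1-4 level in cop1-4 BBX22-GFPox replicates 2 and 3 and still far below wild type. The probe set 245970_at had 2582, 1832 and 1361 in wild type, 10.5, 28.1 and 31.6 in cop1-4 and 86.7, 72.5 and 49.1 in cop1-4 BBX22-GFPox. Its highest array in wild type and in cop1-4 BBX22-GFPox was replicate 1, while its lowest in cop1-4 was also replicate 1.

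The remaining 4 unnamed members differed in how the mutant arrays lay. The probe set 248213_at had 935, 1906 and 1426 in wild type, 46.5, 79.4 and 69.2 in cop1-4 and 41.3, 42.4 and 40.4 in cop1-4 BBX22-GFPox, the last an SD of 1.00. The probe set 248236_at had 785, 937 and 701 in wild type, 10.6, 48.1 and 45.4 in cop1-4 and 21.2, 22.1 and 16.8 in cop1-4 BBX22-GFPox. Both were dimmer with the construct than in cop1-4 replicates 2 and 3. The probe set 253054_at had 991, 795 and 607 in wild type, 129.5, 74.9 and 47.2 in cop1-4 and 115, 35.9 and 42.9 in cop1-4 BBX22-GFPox, with replicate 1 the highest in each genotype. The probe set 254685_at had 1072, 787 and 662 in wild type, and in cop1-4 it split into 2.40 in replicate 1 and 126 and 113 in replicates 2 and 3. In cop1-4 BBX22-GFPox it was at 10.3, 2.50 and 11.9, all under 24.5, so no ratio to that genotype is given. Its wild type mean was 10.5 times the cop1-4 mean.

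Over the 15 members the ratio of the wild type to the cop1-4 mean ran from 6.37 to 186 with a median of 19.6, and that to the cop1-4 BBX22-GFPox mean from 7.36 to 359 with a median of 25.3. On the log2 scale the cop1-4 difference had a median of −3.86 (range −6.99 to −2.45), where the median over all probe sets tested was −0.11. Within replicate 1 the median ratio of wild type to cop1-4 was 22.8, within replicate 2 it was 20.4 and within replicate 3 it was 15.4. The smallest ratio of any member was 7.65, 5.54 and 4.99 in the same order, so each member was brighter in wild type within each replicate number.

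Probe sets lay close to the thresholds on either side. Just inside the wild type threshold were 253054_at (lowest wild type array 607), AT1G64380 (623) and AT2G37870 (640). Just outside were PME61, a pectin methylesterase gene (590), AT4G17470 (556) and 247126_at (537). PME61 had 648, 590 and 678 in wild type, 24.1, 74.8 and 107 in cop1-4 and 25.3, 2.90 and 18.8 in cop1-4 BBX22-GFPox, with its wild type arrays above all mutant arrays. Just inside the mutant ceiling were AT1G64380 (highest mutant array 144), AT2G34020 (142) and AT4G11610 (141), and just outside were 265131_at (151), 250165_at (153.9) and AT4G20320 (154).

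The wild type arrays differed from each other by more in the members than in bright probe sets at large. The coefficient of variation over the 3 wild type arrays had a median of 23.8% in the members (10.2% to 34.2%), against 15.4% over the 4699 probe sets with 600 or more on all wild type arrays. No test was made of that difference. In 7 members wild type replicate 1 was the highest array, and in 5 the lowest, where 42.3% and 40.9% of those 4699 probe sets were so placed. The members thus fell on both sides. OCT1 was farthest up in replicate 1 (log2 difference of 0.77 from the mean of replicates 2 and 3) and 248197_at farthest down (−0.89), and the median was 0.12. The middle 90% of the 4699 ran from −0.82 to 0.87.

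**Figure D2:**
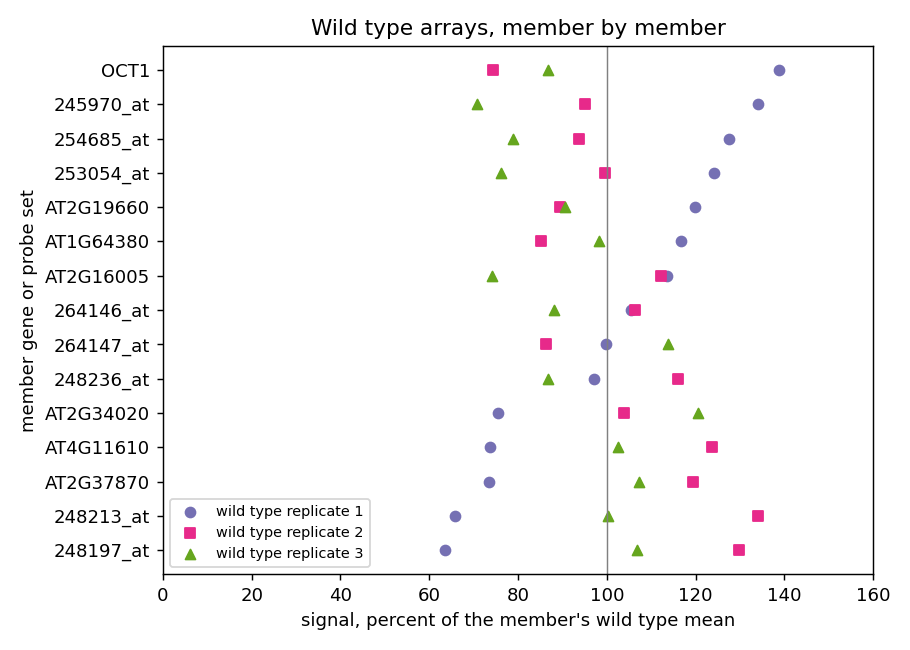
Signal of each member on the 3 wild type arrays as a percent of its own wild type mean, ordered by the position of replicate 1. Replicate 1 is the highest array for 7 members at the top, from AT2G16005 to OCT1, and the lowest for 5 at the bottom, from AT2G34020 to 248197_at.

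Replicate 1 of cop1-4 also stood apart. In 11 of the 15 members it was the lowest of the 3 cop1-4 arrays and in 2 the highest, where 50.3% and 39.7% of all probe sets tested were so placed. In cop1-4 BBX22-GFPox replicate 1 was the lowest array for 4 members and the highest for 5, against 47.3% and 42.8% of all probe sets tested. The array of cop1-4 replicate 1 had the lowest median signal of the 9, 147.2, and whether it bears on the members' low values there was not tested.

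The rule also selected on the cop1-4 BBX22-GFPox arrays, so members could not be regained with the construct. Of 4699 probe sets with 600 or more on all wild type arrays, 32 were under 150 on all 3 cop1-4 arrays. These were the 15 members, OLEO3 and 16 that reached 150 on at least 1 array of cop1-4 BBX22-GFPox. Of those 16, 8 reached it on all 3 arrays. The 16 were chosen in part on this contrast, so their 7 limma calls higher with the construct are a description (0.283% of all probe sets were called higher). The 7 became 4 without replicate 2 or 3 of wild type or of cop1-4, and 3 without replicate 2 or 3 of cop1-4 BBX22-GFPox. AT5G26270, for example, had 1451, 1037 and 1117 in wild type, 128, 133 and 127 in cop1-4 and 428, 1065 and 972 with the construct. Its replicates 2 and 3 with the construct lay in the wild type range (1037 to 1451) or just under it. In 2 of the 16, ZW9 and AT5G45500, all 3 arrays with the construct were at 600 or more. Since the rule split the 32 by this measure, the contrast between the members and the 16 is a description.

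**Figure D3:**
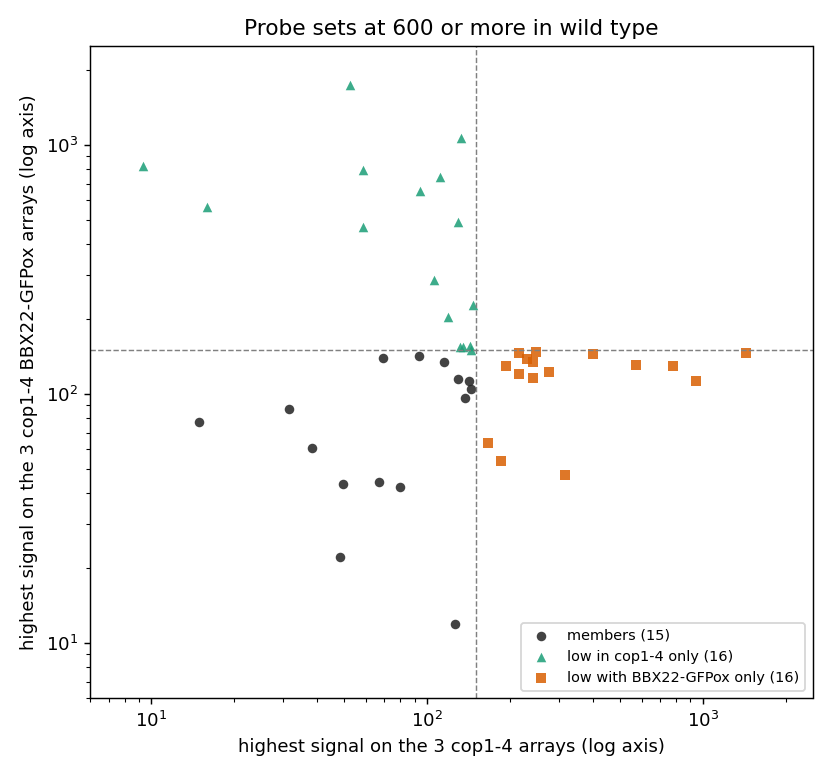
Highest signal on the 3 cop1-4 arrays (x, log axis) against the highest on the 3 cop1-4 BBX22-GFPox arrays (y, log axis) for probe sets at 600 or more on all wild type arrays and under 150 in at least one mutant genotype, OLEO3 left out. Circles are the 15 members, triangles the 16 low in cop1-4 only, which reach up to 1743 with the construct, and squares the 16 low with the construct only; dashed lines mark 150.

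Between cop1-4 BBX22-GFPox and cop1-4, the contrast whose direction the rule left free, no member was called (limma, 0 of 15, with 3 at an unadjusted p under 0.05). Over all 15922 probe sets 48 were called, or 0.301%, and 1194 had an unadjusted p under 0.05. The rule kept both genotypes under 150 and so limited how large a difference could be. All 15 members passed the filter on dim probe sets, and 8 would have passed on the mutant arrays alone. The other 7 were OCT1, AT2G16005, 245970_at, 248197_at, 248236_at, 254685_at and 264147_at, which were tested here only because wild type was high. The 3 with an unadjusted p under 0.05 were all among these 7, and of the 8 none had one (0 called by limma, 0 at an unadjusted p under 0.05). With the replicate number as a block the count of members called was also 0, where 1.29% of all probe sets were called. With the block 5 members had an unadjusted p under 0.05, and the share of all probe sets at that level is not given here. Among these, OCT1, 245970_at, 254685_at and 264147_at were tested only because wild type was high. Only AT2G34020 would have passed the filter on the mutant arrays alone.

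The log2 differences went both ways, with 6 members higher and 9 lower with the construct and a median of −0.20. Over all probe sets 49.4% were higher and the median was −0.0047. The largest upward differences were those of 264147_at (0.99, SE 0.309, limma adjusted p = 0.374) and 245970_at (0.98, SE 0.297, adjusted p = 0.353). Both were tested only through wild type, and 2 of the cop1-4 values of 264147_at and 1 of those of 245970_at lay under 24.5. In these 2 members all 3 arrays with the construct lay above all 3 of cop1-4, as in 6.37% of all probe sets. In 3 members, 248213_at, AT2G16005 and AT4G11610, all 3 lay below, as in 4.99%. The third largest upward difference was that of AT2G34020 (0.65, adjusted p = 0.672), and OCT1 stood at 0.63 (SE 0.436, adjusted p = 0.933). Within replicates 1, 2 and 3 the OCT1 difference was 1.37, 0.26 and 0.25, and it was 0.11 without cop1-4 BBX22-GFPox replicate 1. Of the 6 mutant values of OCT1, 5 lay under 24.5. The largest downward differences were those of 254685_at (−1.34, SE 0.589, adjusted p = 0.663), 248197_at (−0.60, adjusted p = 0.802) and 248213_at (−0.42, adjusted p = 0.898).

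The replicates did not give the same order. In replicate 1, 10 members were higher with the construct and the median difference was 0.37, while in replicates 2 and 3 it was 5 members each, with medians of −0.19 and −0.089. Over all probe sets tested the medians were 0.026, 0.022 and −0.069, so that of the members in replicate 3 was close to the background. A fit to replicates 2 and 3 alone, chosen after seeing the data, called 6 members, where 24.3% of all probe sets were called. Its p-values rest on the spread between 2 arrays per genotype, pooled over the genotypes, and leave out the distance of replicate 1. Of the 6, 245970_at and 264146_at were higher and 248197_at, 248213_at, 248236_at and 254685_at were lower. Only 264146_at and 248213_at of these would have passed the filter on the mutant arrays alone, 2 of 8 such members or 25%, close to the 24.3% of all probe sets. Leaving out cop1-4 replicate 1 alone called 1 member, where 2.37% of all probe sets were called. It was 254685_at (−2.15, limma adjusted p = 0.00665), whose signal on that array was 2.40. This member was tested only through wild type and lay under 24.5 on all 3 arrays with the construct, so the call rests on values at the dim end of the arrays.

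**Figure D4:**
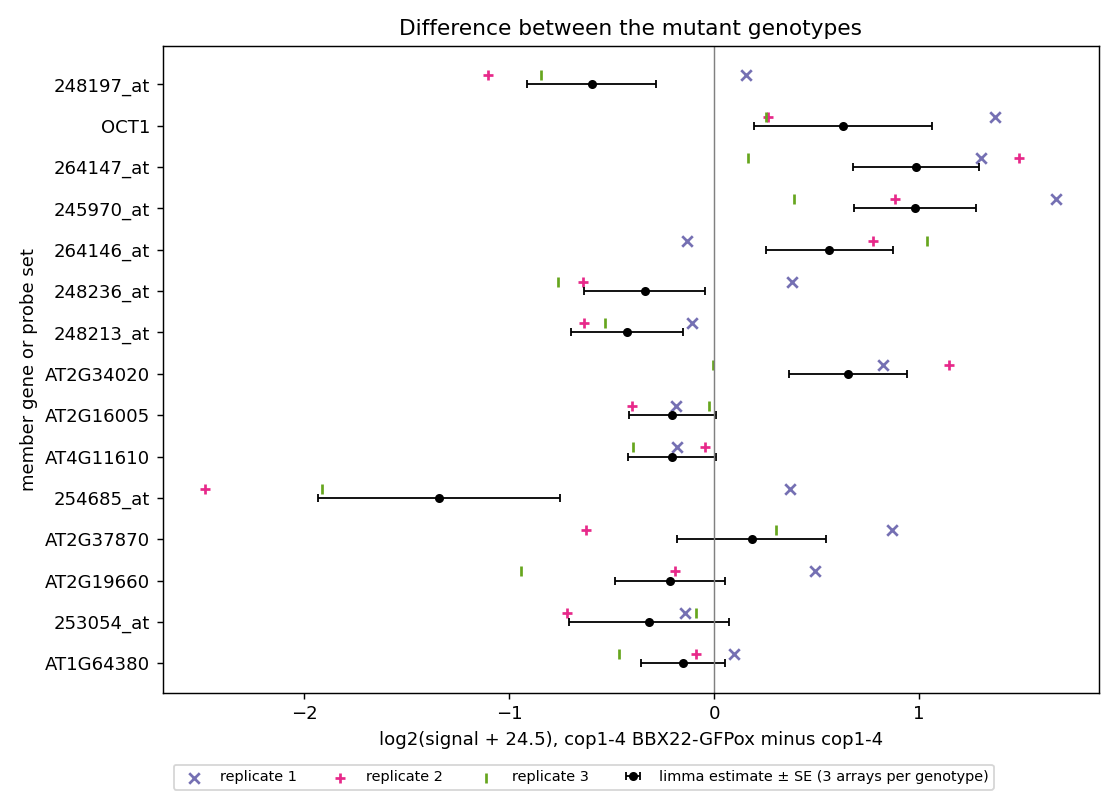
Difference between cop1-4 BBX22-GFPox and cop1-4 on the log2(signal + 24.5) scale for each member. Black points are the limma estimates with their standard errors (3 arrays per genotype), running from −1.34 to 0.99, and the small marks above them are the differences within replicates 1, 2 and 3.

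A list of 26 lipid transfer and hybrid proline-rich protein loci, which does not hold the member AT2G37870, had 7 tested genes. In cop1-4 1 of them rose and 2 fell, where 11.3% of all probe sets were raised and 14.5% lowered, and the median log2 change was 0.21, against −0.11 over all probe sets. AT4G22490 fell by 4.35 (SE 0.597, limma adjusted p = 0.00193). It was proposed as a marker of the set, which was chosen on this same contrast. Its place among the lowered genes, here and with the block, is therefore a description. AT4G22460, close to it on the chromosome by locus number, went from 673, 884 and 1034 in wild type to 101, 113 and 150 in cop1-4 (log2 change −2.60, adjusted p = 0.000874). AT4G12490 moved the other way, from 49.8, 57.2 and 85.8 to 117, 754 and 959 (log2 change 2.45, adjusted p = 0.0234), and leaving out any of 5 arrays ended its call (adjusted p at most 0.0843, without cop1-4 replicate 2). The list of genes activated by phytochrome-interacting factors had 2 tested loci, of which FHL fell (log2 change −1.27, adjusted p = 0.0288) and IAA29 stood at −0.66 (adjusted p = 0.295). Leaving out any of 5 arrays ended the FHL call (adjusted p at most 0.0938, without wild type replicate 1). With the block, where 19.9% of probe sets were raised and 24.6% lowered, 1 gene of the first list was raised and 3 were lowered.

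Markers of organs and stages moved as follows, and their part in the members' values was not tested. All 3 measured greening genes rose, and their summed signal was 8912 to 14458 in wild type, 34956 to 70950 in cop1-4, and with the construct 39269 to 54994. The call of one of them, SBPASE, was lost without wild type replicate 1 (adjusted p = 0.0507). Of the embryo and seed list 1 of 5 loci had a probe set, that of OLEO3, which met the rule before it was left out by name. Its lower signal in cop1-4 is therefore a description (2323, 2146 and 1960 in wild type against 45.6, 64.7 and 69.1 in cop1-4). The sums of the 2 root hair genes overlapped (47.0 to 610 in wild type and 196 to 1049 in cop1-4), and 0 of 2 was called, though both were called higher with the block. The 2 tested stomatal genes summed to 102 to 128 in wild type and 196 to 224 in cop1-4, with 0 called and 1 called higher with the block. The single cell division gene was not called (log2 change 0.46, adjusted p = 0.566), and the root endodermis and root transport lists had 0 loci with a probe set.

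The named members were spread over chromosomes 1 (2 members), 2 (4) and 4 (1), where 16.4% of all matched probe sets lie on chromosome 2. Their gene spans ran from 739 to 4361 bases with a median of 2046, against 2117 over all matched probe sets. No 2 of them were neighbours. Among the 3 protein-coding genes on each side of each member, 42 in all, 16 were tested. In cop1-4 2 of them were called lower and 2 higher than in wild type (limma), 12.5% each way, close to the 14.5% and 11.3% of all probe sets. Their median log2 change was 0.30, against −0.11 over all probe sets. With the replicate block 3 of the 16 were called lower and 7 higher, where 24.6% and 19.9% of all probe sets were. The raised share was thus above that of all probe sets and the lowered share below it, a difference that was not tested. Among the lowered was GH9C2 near AT1G64380 (log2 difference −2.85, limma adjusted p = 0.0982, and 0.00823 with the block). It had 4262, 5172 and 6265 in wild type against 81.8, 1634 and 2096 in cop1-4, with replicate 1 far below the other cop1-4 arrays. AT2G19650, next to AT2G19660, had 30.6, 32.9 and 34.7 in wild type against 64.3, 126 and 91.7 in cop1-4 (log2 change 1.02, adjusted p = 0.0273; leaving out any of 5 arrays ended the call, at most 0.102, without cop1-4 replicate 2). AT1G73230, next to OCT1, rose from 2350, 3222 and 3229 to 4503, 6211 and 5290 (log2 change 0.86, adjusted p = 0.0336; leaving out any of 6 arrays ended the call, at most 0.118, without cop1-4 replicate 2, as did quantile normalization, 0.0563). AT2G37840, the second gene from AT2G37870, fell by 1.10 (adjusted p = 0.0042), and OSM34, an osmotin-like gene that is the third from AT4G11610, fell by 1.83 (adjusted p = 0.0149; leaving out either of 2 arrays ended the call, at most 0.0585, without wild type replicate 3).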

How the data were processed

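Biotin-labelled RNA was hybridised to 1-colour Affymetrix arrays. The deposited intensities are linear MAS5 probe set signals, per the submitters' processing notes with version and scaling target not stated there; trimmed by 2%, array means were 495 or 496. Detection calls were not used here. Probe sets were named through the platform annotation (13513 with 1 gene, 503 several, 8730 none) and the TAIR10.1 gene table, used for names, spans and neighbours (13436 matched).

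The rule was applied to the deposited signals. Values were then taken as log2(signal + 24.5), which understates changes of dim probe sets, those at or above the 30th percentile were kept (15922), and 1 mean per genotype was fitted to the 9 arrays with limma 3.58.1 (R 4.3.3, intensity trend). Tests were two-sided with Benjamini-Hochberg adjustment over all probe sets kept, and calls are at an adjusted p under 0.05. "Rose" and "fell" are used for calls. The script was tested on simulated data. The number of arrays limits the precision, and since separate sowings are not stated, the spread behind the p-values may be technical.

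The replicate numbers were taken to pair the arrays, since deviations from the genotype means correlated for all 9 same-numbered pairs (0.375 to 0.806). Replicates 2 and 3 of different genotypes correlated about as strongly (0.337 to 0.739), and replicate 1 with either of them negatively, so these values separate replicate 1 from the others and do not tell 2 from 3. Members and lists were chosen with earlier results of these data known. By the rule for named genes, every member is named, with the probe sets nearest to each threshold, and the brightest probe set stands for a gene. List genes and neighbours given with values were chosen after seeing them. Alternatives were other normalizations, offsets, filters and thresholds, the block, and leaving out each array.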

Additional observations from a re-analysis of the deposited data

How the results depend on the processing

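The count of 15 members was 16 with quantile normalization (14 of them shared), 15 with median scaling (13 shared) and 15 to 20 when the rule ignored any 1 array. Thresholds of 500 and 200 gave 38, and 800 and 100 gave 5. The members' median log2 difference between cop1-4 and wild type was −2.94 and −5.26 under those thresholds, −4.43 with no offset, −3.02 with an offset 4 times larger and −3.97 to −3.60 without any 1 array. The median difference of wild type replicate 1 from replicates 2 and 3 was 0.12, and 0.24 with median scaling.

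Members called between the mutants numbered 0 with each other normalization, offset, filter and the replicate block, 0 to 1 without any 1 array (the 1 without cop1-4 replicate 1), and 6 in replicates 2 and 3 alone. With the filter at the 50th percentile only 7 members were tested. AT2G37870 (0.18) turned to −0.16 in replicates 2 and 3 alone and ran from −0.20 to 0.40 without any 1 array; AT2G19660 ran from −0.43 to 0.030, the last without cop1-4 replicate 3. All probe sets called numbered 4100 for cop1-4 against wild type, 7096 with the replicate block, 9976 in replicates 2 and 3 alone and 2222 to 5657 without any 1 array. For cop1-4 BBX22-GFPox against cop1-4 they numbered 48, 206 with the block, 27 with the filter at the 50th percentile, 3867 in replicates 2 and 3 alone and 11 to 378 without any 1 array. List genes called numbered 8 of 20, where 14.5% of all probe sets were called lower and 11.3% higher. With the block they numbered 13, where those shares were 24.6% and 19.9%. Both counts hold OLEO3, which met the rule before it was left out by name, and the proposed marker AT4G22490. They are therefore descriptions. FHL lost its call with quantile normalization and median scaling. The causes of these changes were not tested, and dim mutant signals limit the ratios.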

Other observations

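A second group of 16 probe sets was at 600 or more on all wild type arrays and under 150 on all 3 arrays of cop1-4 BBX22-GFPox, but not on all 3 of cop1-4. In 15 of them cop1-4 replicate 1 was under 150, and in 13 replicates 2 and 3 were both at 150 or more. AT3G48970, for example, had 2978, 2956 and 3797 in wild type, 127, 1436 and 1171 in cop1-4 and 117, 146 and 113 with the construct. The protein kinase gene WAG2 had 835, 1231 and 1371 in wild type, 30.5, 570 and 555 in cop1-4 and 56.0, 128 and 131 with the construct. AT4G35720 had 5.60, 782 and 724 in cop1-4. On cop1-4 replicate 1 AT3G48970, WAG2 and AT4G35720 resembled the members, and on replicates 2 and 3 they did not. The probe set 250717_at went the other way, with 193, 96.8 and 74.5 in cop1-4. The 16 were chosen in part on the contrast between the mutant genotypes, so their limma results there are a description. None was called (0 of 16, where 0.301% of all probe sets were called). An unadjusted p under 0.05 was seen in 6, and in 1194 of all 15922 probe sets tested. AT4G22490, the proposed marker that missed the rule, was 1 of the 16. These examples were chosen after their values were seen.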
